A study of Mus musculus with 12 samples.

Results

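Few probe sets differed in common between UAG-injected and saline-injected mice in gonadal white fat, skeletal muscle and liver. When all 6 arrays from UAG-injected mice were set against all 6 from saline-injected mice, with tissue as a block, 5 of 45037 probe sets passed the test. Erdr1, named as a regulator of erythroid differentiation, and Tmem267, which encodes a transmembrane protein, fell, and so did a pair of probe sets without a gene name, with UAG arrays below saline arrays in every tissue. Timp4, which encodes an inhibitor of matrix metalloproteinases, rose, although in liver it was barely detected. The members of this comparison are all 12 arrays of the series and all probe sets except the 64 Affymetrix controls among 45101. They were chosen by the treatment in the sample titles, so that the comparison describes what the tissues shared and not what any of them did alone.

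The mice were females of the C57bl/6 strain, 12 weeks old, and every animal, saline controls included, was a knockout (KO) for GHSR, the growth hormone secretagogue receptor. The groups were UAG-treated mice, given unacylated ghrelin intraperitoneally at 20 nmol/kg, and saline-treated mice. Gonadal white adipose tissue (WAT), M. vastus lateralis (muscle) and liver were taken 6 h later, with 2 arrays per tissue and treatment. No receptor-bearing mice were measured, so no value below speaks to a dependence on GHSR. The description of the RNA isolation reads as 2 mice per treatment that gave all 3 tissues, so that the 6 arrays of a treatment may come from 2 animals. With the 3 tissues averaged per treatment and replicate number, 2 probe sets passed instead of 5, both lower. The labels tie no array to a mouse or a culture, and the p-values therefore measure only the spread between these samples.

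Ghrelin is a peptide hormone of the stomach. With an octanoyl group on a serine it activates GHSR, which drives growth hormone release and appetite. UAG, the form that lacks this group and circulates in larger amounts, does not activate GHSR at physiological levels, and its own receptor is not settled. The glucocorticoid receptor, which is referred to below, is a transcription factor bound by the adrenal steroid corticosterone in mice. It raises transcription of a set of genes found in many tissues, among them Fkbp5, Per1 and Tsc22d3, and corticosterone follows both the time of day and stress. Genes of fatty acid synthesis are raised by insulin through SREBP1c in liver, and by glucose through ChREBP in fat and liver. For fat, the study cites evidence that SREBP1c governs the synthesis of cholesterol rather than that of fatty acids.

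A probe set is a group of short oligonucleotides that together report a transcript, and its level is given here as intensity, the deposited log2 value returned to a linear scale. Intensities below 30 are called dim, after the threshold named in the methods of the study. A difference is UAG minus saline on the log2 scale, and its error is the standard error of the limma fit. Adjusted p-values come from limma, with the Benjamini-Hochberg method applied to the 45037 probe sets together. Where the arrays of the treatments are said to lie apart, both UAG arrays of a tissue were above or below both saline arrays of that tissue.

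Defining markers fitted the labelled tissues. The summed intensity of the adipocyte markers was 51560 to 62736 on WAT arrays and at most 583 in liver, that of the skeletal muscle fibre markers 135150 to 141290 on muscle arrays, and that of the hepatocyte markers 91770 to 126448 on liver arrays. The muscle arrays also carried adipocyte markers, at 26717 to 42575. Some arrays stood apart. WAT saline replicate 1 had a summed intensity of brown adipocyte markers of 20142, against 4109 and 2016 on the WAT UAG arrays and 2971 on WAT saline replicate 2. The same array had 4833 for skeletal muscle fibre markers, against 1247 and 1676 on the WAT UAG arrays and 881 on WAT saline replicate 2. WAT saline replicate 2 had 34902 for smooth muscle markers, against 6693 and 7143 on the WAT UAG arrays and 6235 on the other saline array. For uterine and ovarian markers it had 4550, against 1621 and 1822 on the WAT UAG arrays and 1859 on the other saline array. Muscle UAG replicate 2 had 7545 for neutrophil markers, against 384 on muscle UAG replicate 1 and 299 and 940 on the muscle saline arrays. Muscle saline replicate 2 had 2949 for mesothelial and epithelial markers, against 603 and 779 on the muscle UAG arrays and 139 on muscle saline replicate 1. The 3′ to 5′ ratio of Actb, a sign of RNA quality, was 1.94 and 2.35 on liver UAG arrays and 1.70 and 1.78 on liver saline arrays. In tissue RNA, fewer cells of a type and less RNA per cell cannot be told apart. The Ghsr probe set was dim on every array, at 3.80 to 20.4 after UAG and 4.28 to 26.2 after saline, and where it lies relative to the deleted part is not given in the sources used here.

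The promoters of the named genes around which the results turn are printed first. They are from RefSeq on GRCm38.p6, read 5′ to 3′ along the gene, and run from 250 bases before a start site to 50 after it. Capitals mark a match, on either strand, to any of 7 motifs searched. These were the glucocorticoid receptor full site (AGAACA and TGTTCT with 3 bases between), its half-site TGTTCT, a C/EBP site TTGCNNAA, the E-box CACGTG of clock factors, the FOXO site TGTTTAC, the cAMP response element TGACGTCA and the TATA box TATAAA. The full site holds the half-site on both strands. Tmem267 and Timp4 are shown because they passed the pooled test, and Per1 and Fkbp5 because they are glucocorticoid targets whose treatments lay apart in every tissue. They lie at chr13:119487836-119488135 on the plus strand (Tmem267, the first of its 2 starts), chr6:115252156-115252455 on the minus strand (Timp4), chr11:69098699-69098998 on the plus strand (Per1, the first of its 2 starts) and chr17:28486100-28486399 on the minus strand (Fkbp5).
Tmem267: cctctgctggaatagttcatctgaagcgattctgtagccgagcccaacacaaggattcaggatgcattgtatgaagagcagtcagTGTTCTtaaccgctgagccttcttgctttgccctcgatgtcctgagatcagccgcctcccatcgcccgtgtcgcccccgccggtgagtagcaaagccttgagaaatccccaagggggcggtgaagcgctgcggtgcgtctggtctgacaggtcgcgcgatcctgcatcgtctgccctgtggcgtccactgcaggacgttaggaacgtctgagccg
Timp4: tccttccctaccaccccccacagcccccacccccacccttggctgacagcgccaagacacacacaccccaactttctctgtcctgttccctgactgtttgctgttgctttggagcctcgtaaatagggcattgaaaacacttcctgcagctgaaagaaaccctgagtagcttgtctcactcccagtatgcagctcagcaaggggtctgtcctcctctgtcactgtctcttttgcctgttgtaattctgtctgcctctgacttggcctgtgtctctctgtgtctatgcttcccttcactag
Per1: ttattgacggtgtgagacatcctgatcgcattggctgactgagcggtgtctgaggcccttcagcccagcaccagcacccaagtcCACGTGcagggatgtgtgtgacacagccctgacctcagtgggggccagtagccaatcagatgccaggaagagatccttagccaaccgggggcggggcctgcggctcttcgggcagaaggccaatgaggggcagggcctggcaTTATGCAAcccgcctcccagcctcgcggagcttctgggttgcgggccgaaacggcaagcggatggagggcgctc
Fkbp5: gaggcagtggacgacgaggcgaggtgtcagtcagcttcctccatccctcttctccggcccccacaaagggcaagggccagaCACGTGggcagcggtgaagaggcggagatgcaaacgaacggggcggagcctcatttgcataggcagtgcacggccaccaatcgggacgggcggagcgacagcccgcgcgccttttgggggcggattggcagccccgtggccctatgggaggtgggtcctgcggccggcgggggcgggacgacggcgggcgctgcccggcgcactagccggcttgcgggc
The Tmem267 window held a half-site, which 19% of 32851 promoter windows of this length hold, and the Timp4 window held none of the 7 motifs. The second windows of Tmem267 and of Per1 held none either. The Per1 window printed held an E-box and a C/EBP site, which 7.15% and 10.8% of windows hold, and the Fkbp5 window held an E-box. Of the 35 genes in the list of glucocorticoid-induced genes described further on, 31 had a window. The full site was in the window of 1 of them, Sgk1, and in 0.0111% of all genes with a window, and the half-site was in those of 6, against 21.3% of all genes. A match of letters is a description of the sequence only.

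The pooled test called 5 probe sets (0.0111% of those tested), 1 of them higher after UAG (0.00222%) and 4 lower (0.00888%). At an unadjusted p under 0.05 there were 2202, of which 1193 were higher and 1009 lower. The direction of the few calls was not stable, since without muscle saline replicate 2 or without liver saline replicate 2 there were 4 higher and 3 lower. Erdr1 (probe set 1452406_x_at) had 670 and 836 on UAG arrays of WAT, 310 and 438 of muscle and 605 and 467 of liver. On saline arrays it had 1822 and 1946 in WAT, 940 and 790 in muscle, with 1443 and 1299 in liver. The treatments lay apart in all 3 tissues. Erdr1 fell by 1.31 on the log2 scale (standard error 0.11, adjusted p = 0.000103), a fold of 0.404, and its tissue differences spanned only -1.23 in muscle to -1.36 in liver. The ending x_at marks, in the naming of Affymetrix, a probe set in which some probes also match other transcripts. A second Erdr1 probe set, near the dim limit with a mean intensity of 30.3, had a pooled difference of -0.35 (standard error 0.45), and with the probe sets of each gene averaged Erdr1 was not called (-0.83, adjusted p = 0.986).

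Tmem267 (1426607_at) had 109 and 119 on WAT, 361 and 294 on muscle and 180 and 134 on liver arrays of UAG-treated mice. Saline-treated mice had 417 and 302 in WAT, 1007 and 589 in muscle, with 451 and 442 in liver. Every UAG array was below both saline arrays of its tissue. Tmem267 fell by 1.47 (standard error 0.14, adjusted p = 0.000726), to 0.361 of its saline level. The call was lost on the mean of the 3 tissues per treatment and replicate number, where 2 values stand against 2 (adjusted p = 0.0985), without WAT (0.0661), without liver (0.105), with a floor on intensity at 30 (0.118) or 100 (0.164), and without the intensity trend (0.0764). Erdr1 was called in each of these 6 settings.

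A probe set without a gene name in the annotation used here, 1427820_at, showed the largest fall of the 5. It had 101 and 140 in WAT, 110 and 110 in muscle, with 155 and 68.5 in liver after UAG, against 750 and 702, 417 and 425, and 702 and 470 after saline in the same order of tissues. The treatments lay apart in every tissue. It fell by 2.34 (standard error 0.19, adjusted p = 0.000103), and the call was lost with a floor on intensity at 30 (adjusted p = 0.0581). The other unnamed probe set, 1439200_x_at, had 172 and 179 in WAT, 104 and 85.0 in muscle, with 111 and 59.4 in liver after UAG, against 332 and 264, 265 and 215, and 277 and 264 after saline. It fell by 1.28 (standard error 0.18, adjusted p = 0.0436), with -0.76 in WAT and -1.74 in liver. Its call was kept in 2 of the 12 fits that each left out an array.

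Timp4 (1423405_at) had 1465 and 1741 on UAG arrays of WAT and 721 and 716 of muscle. Saline arrays had 773 and 444 in WAT and 361 and 463 in muscle. In liver it was dim, at 12.3 and 18.3 after UAG and 6.82 and 4.81 after saline. The treatments lay apart in each tissue, but in liver below the level at which the study read its arrays. Timp4 rose by 1.21 (standard error 0.17, adjusted p = 0.0436), a fold of 2.32. With intensities below 30 set to 30 the difference was 0.75 and was not called (adjusted p = 1), and leaving out any array but muscle saline replicate 2 also ended the call (adjusted p from 0.0627 to 0.286). With the replicate number as a block Timp4 was not called (adjusted p = 0.159). A second Timp4 probe set had a pooled difference of 0.55 (standard error 0.27) and a liver difference near 0, with 26.5 and 9.53 after UAG against 12.3 and 24.3 after saline. The summed adipocyte markers were 57600 and 62736 on WAT UAG arrays and 56408 and 51560 on WAT saline arrays, and overlapped in muscle. Their part in the result was not tested.

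**Figure D1:**
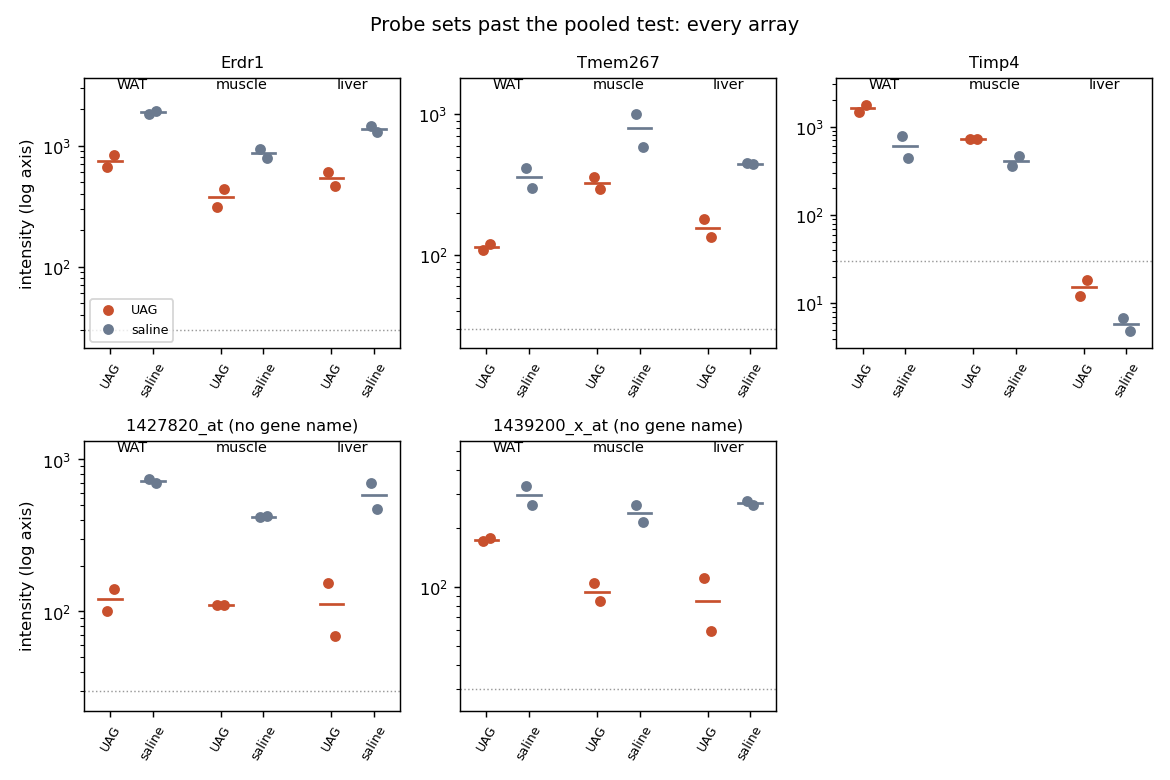
Intensity (log axis) on each of the 12 arrays of the 5 probe sets past the pooled test, UAG (orange) left of saline (grey) in each tissue, with points for arrays, bars for the mean of 2 arrays and a dotted line at 30. The treatments do not overlap in any tissue, and both liver groups of Timp4 lie under the dotted line.

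Across genes at large, the tissue differences were close to uncorrelated. In the 26530 probe sets whose mean intensity reached 30, the UAG differences of WAT and muscle had a Pearson correlation of 0.046, those of WAT and liver 0.038 and those of muscle and liver 0.047. The points are probe sets and not replicates, and the tissues may have come from the same mice. Fitted with a mean for each tissue and treatment, limma called 15 probe sets in WAT (0.0333%), 4 higher and 11 lower, 7 in liver (0.0155%), 4 higher and 3 lower, and 0 in muscle, where 1650 had an unadjusted p under 0.05 and the smallest adjusted p was 0.565. No probe set passed the test for a difference of the UAG effect between tissues (smallest adjusted p = 0.0729), although 1877 had an unadjusted p under 0.05. With dim intensities set to 30, that test called 142.

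Without any model, 243 probe sets (0.540%) had both UAG arrays above both saline arrays in all 3 tissues, and 201 (0.446%) had them below. With each gene represented by its brightest probe set, these were 100 (0.550%) and 69 (0.379%) of 18193 genes. Of the 444 probe sets, 272 reached a mean intensity of 30. With so few arrays per group, treatments can lie apart in a tissue by chance. An exact test within a tissue can give no p below 0.333. The share expected apart in every tissue by chance was not computed. These counts are therefore no measure of how many probe sets responded to UAG.

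Below the called genes, the probe sets with the smallest pooled p and treatments apart in every tissue are given as values, since none passed the adjustment. Fmo2, a flavin-containing monooxygenase, had 830 and 974 in WAT, 341 and 402 in muscle, with 676 and 770 in liver after UAG, against 487 and 359, 234 and 279, and 467 and 483 after saline. Its pooled difference was 0.75 (standard error 0.12, adjusted p = 0.114). Its widest gap was in WAT, where the difference was 1.10. Foxo1, the forkhead factor that insulin signaling keeps out of the nucleus, had 568 and 641 in WAT, 429 and 502 in muscle, with 399 and 346 in liver after UAG, against 395 and 478, 281 and 288, and 303 and 243 after saline. Its difference was 0.54 (standard error 0.10, adjusted p = 0.216), and 2 other bright Foxo1 probe sets had 0.50 and 0.42. A dim Foxo1 probe set had -0.23.

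Cebpd, encoding a C/EBP transcription factor that acts early in adipocyte differentiation, had 448 and 603 on WAT, 1314 and 1300 on muscle and 220 and 301 on liver arrays after UAG, against 154 and 347, 529 and 546, and 64.7 and 166 after saline. Its pooled difference was 1.25 (standard error 0.22, adjusted p = 0.216), with 1.17 in WAT, 1.28 in muscle and 1.31 in liver. The pooled value passed when the replicate number was added as a block (adjusted p = 0.0089) and when liver saline replicate 2 was left out (0.045). A second Cebpd probe set, with a mean intensity of 40.7, had 0.15. By quantitative PCR in a separate experiment, the study reported Cebpd as lower after UAG in WAT and muscle. In liver it reported a trend upward. Of 5 measured C/EBP genes, 0 passed, and Cebpb had a pooled difference of 0.13 with -0.29 in WAT and 0.46 in liver.

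Nnat, neuronatin, an imprinted gene of the endoplasmic reticulum membrane, had 4969 and 4583 in WAT after UAG, against 1577 and 1453 after saline. In muscle it had 397 and 438 after UAG, against 59.4 and 329 after saline, and in liver it was dim. Its difference was 1.66 (standard error 0.30, adjusted p = 0.256), and it was called without muscle saline replicate 2 (adjusted p = 0.00214). Cuedc1 had a difference of 1.17 (standard error 0.23), but its brightest probe set had 0.30. Another Cuedc1 probe set, with a mean intensity of 42.7, had -0.73, with -1.97 in liver. Cdyl2, at 1.76, was dim on nearly every array, and its other probe sets had 0.29, 0.27 and -0.13.

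On the lower side, Pim1, a serine/threonine kinase, had 140 and 129 in WAT, 139 and 150 in muscle, with 193 and 235 in liver after UAG, against 262 and 206, 196 and 221, and 265 and 250 after saline. The gap was narrow in liver, and the pooled difference was -0.53 (standard error 0.11, adjusted p = 0.598). A second Pim1 probe set had -0.46, with 0.25 in liver. Rgs2, a brake on G protein signaling, had a difference of -0.68 (standard error 0.16, adjusted p = 0.632). Its brightest probe set had -0.41, with -0.00099 in liver. Another Rgs2 probe set had -0.30, with 0.36 in liver, and a dim Rgs2 probe set had 0.37. Hdac9, C1qtnf4, Spry4 and Gpr151 also had arrays apart in every tissue, with differences of -1.86, -1.59, -1.46 and -1.62. Their mean intensities were 10.3 to 15.0, and with dim values set to 30 the differences of Spry4, C1qtnf4 and Gpr151 were 0. The brightest probe sets of Hdac9, C1qtnf4 and Spry4 had pooled differences of 0.29, -0.16 and -0.071.

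**Figure D2:**
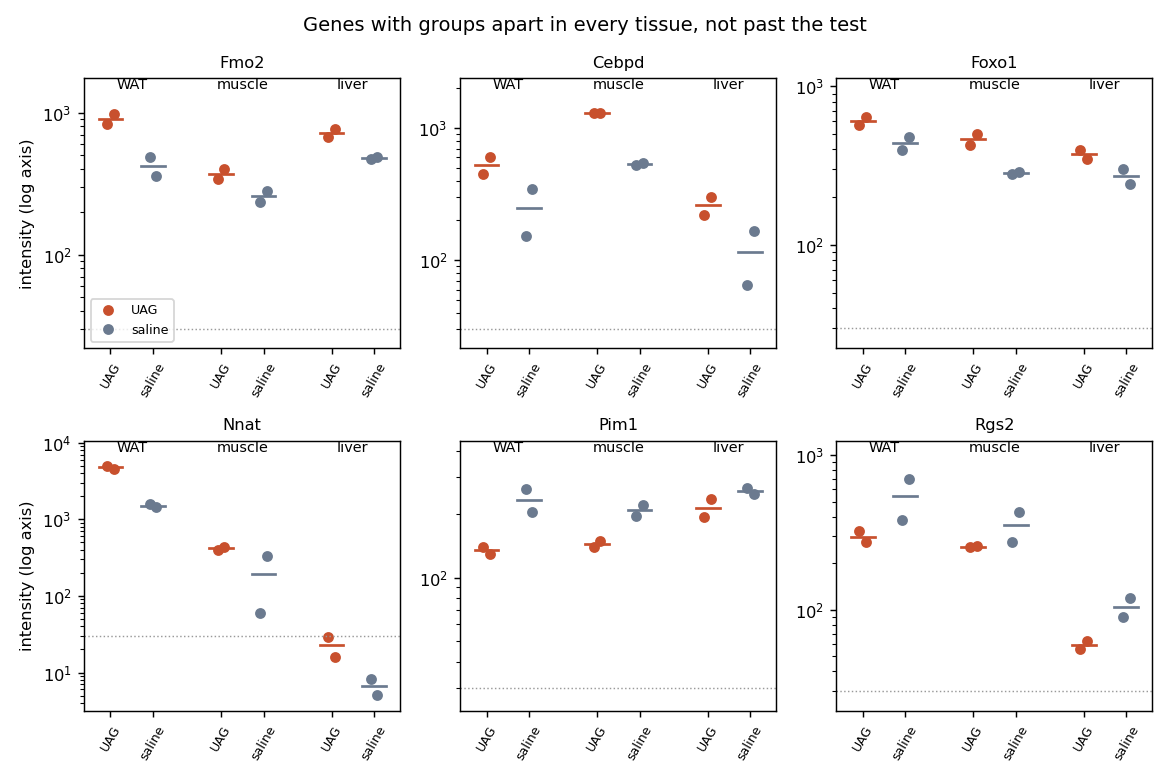
Intensity (log axis) on each array of 6 genes whose treatments lay apart in every tissue without passing the adjusted test, UAG (orange) left of saline (grey), with bars for the mean of 2 arrays and a dotted line at 30. The gap is wide for Nnat in WAT, at 4969 and 4583 after UAG against 1577 and 1453 after saline, and narrow for Pim1 in liver, at 193 and 235 after UAG against 265 and 250 after saline.

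**Figure D3:**
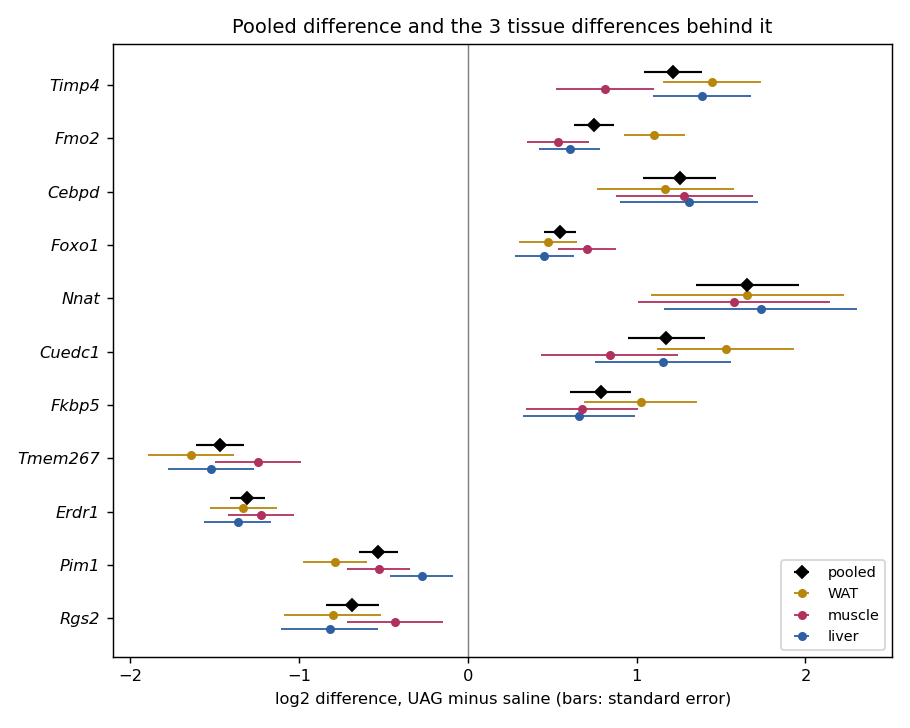
Pooled log2 difference, UAG minus saline (black diamonds), and the difference in each tissue (colored points) of 11 genes, with standard errors as bars. The 3 tissue values of Erdr1 lie within -1.23 to -1.36, whereas those of Fmo2 and Pim1 are spread more widely.

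Slc15a2, a transporter of di- and tripeptides, had a pooled difference of 1.62 (standard error 0.38, adjusted p = 0.655). It had 91.9 and 306 in WAT, 60.8 and 262 in muscle, with 46.0 and 82.9 in liver after UAG, against 48.8 and 27.6, 73.2 and 38.6, and 20.1 and 26.4 after saline. In each tissue UAG replicate 2 was the higher of the UAG arrays, and in muscle the treatments overlapped. The other Slc15a2 probe sets had differences of 0.61 and -0.15. Leptin, Lep, which fat secretes, had 2762 and 3283 in WAT and 366 and 626 in muscle after UAG, against 1495 and 392 in WAT and 176 and 172 in muscle after saline. In liver it was at most 6.69, and the pooled difference was 1.27 (adjusted p = 0.735).

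The list of genes induced by glucocorticoids lay mostly on the higher side. All 35 of its genes were measured, each above a mean intensity of 30, and 31 had a positive pooled difference. Their median was 0.36, against 0.0098 over all 18193 genes. Of the members, 17 had an unadjusted p under 0.05, all of them higher, where 3.06% of all genes were higher and 2.03% lower at that level. None passed the adjusted test, which 3 of 18193 genes (0.0165%) passed by their brightest probe set (smallest adjusted p in the list 0.632), so the members are given as values. The list median was 0.47 in WAT, 0.36 in muscle and 0.36 in liver. Positive members numbered 28, 30 and 28 in that order, and 19 members were positive in all 3. The tissues may come from the same mice, so these counts may not be independent.

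Fkbp5, a co-chaperone that restrains the glucocorticoid receptor, had 734 and 1088 in WAT, 871 and 1303 in muscle, with 788 and 989 in liver after UAG, against 598 and 323, 866 and 513, and 477 and 655 after saline. The treatments lay apart in each tissue, by a small margin in muscle. A second bright probe set, with a difference of 0.58, overlapped in WAT and in muscle. The first had a difference of 0.79 (standard error 0.18, adjusted p = 0.632). Per1, a repressor in the circadian clock that glucocorticoids also induce, had 422 and 375 in WAT, 322 and 338 in muscle, with 294 and 260 in liver after UAG, against 190 and 235, 199 and 244, and 84.3 and 245 after saline. Its difference was 0.81 (standard error 0.19, adjusted p = 0.695). Errfi1, an inhibitor of the EGF receptor, had 686 and 662 in WAT, 616 and 671 in muscle, with 9798 and 11446 in liver after UAG, against 218 and 543, 302 and 439, and 3057 and 8103 after saline. Its difference was 0.96 (standard error 0.23, adjusted p = 0.677).

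The treatments of 4 members, Fkbp5, Per1, Errfi1 and Tsc22d3, lay apart in every tissue with UAG above saline, where 0.550% of all genes did. Tsc22d3, the leucine zipper protein GILZ, had a difference of 0.67, with 1.28 in WAT, 0.37 in muscle and 0.36 in liver. It is named to complete this count, after its values were seen. The metallothioneins Mt1 and Mt2, which bind zinc and copper, had differences of 0.52 and 0.78, and of 0.88 and 1.39 in liver. Hif3a had 0.92, with overlap in WAT and in liver. The members with a negative difference were Rgcc (-0.45), Bcl6 (-0.39), Lcn2 (-0.34) and Fbxo32 (-0.25). Muscle atrophy genes of the list, Fbxo32 and Trim63, thus had differences of -0.25 and 0.12.

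The summed intensity of the glucocorticoid-induced list was 60194 and 66841 on UAG arrays and 49171 and 52524 on saline arrays of WAT, 54376 and 61922 against 42909 and 55992 in muscle, and 74507 and 87688 against 52095 and 63976 in liver. The treatments were apart in WAT and liver and overlapped in muscle. In every tissue and treatment the sum was higher on replicate 2 than on replicate 1. Whether a replicate number is a mouse is not given in the sources used here. Whether the tissues differ independently of each other for this list was not tested. The list median stayed between 0.32 and 0.39 when any array was left out and was 0.31 without WAT. In liver the Actb 3′ to 5′ ratios given above were higher on the UAG arrays, and in muscle UAG replicate 2 carried the neutrophil markers. Their part in the result was not tested. The list was written with earlier results of these data known and is no independent evidence of its direction.

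**Figure D4:**
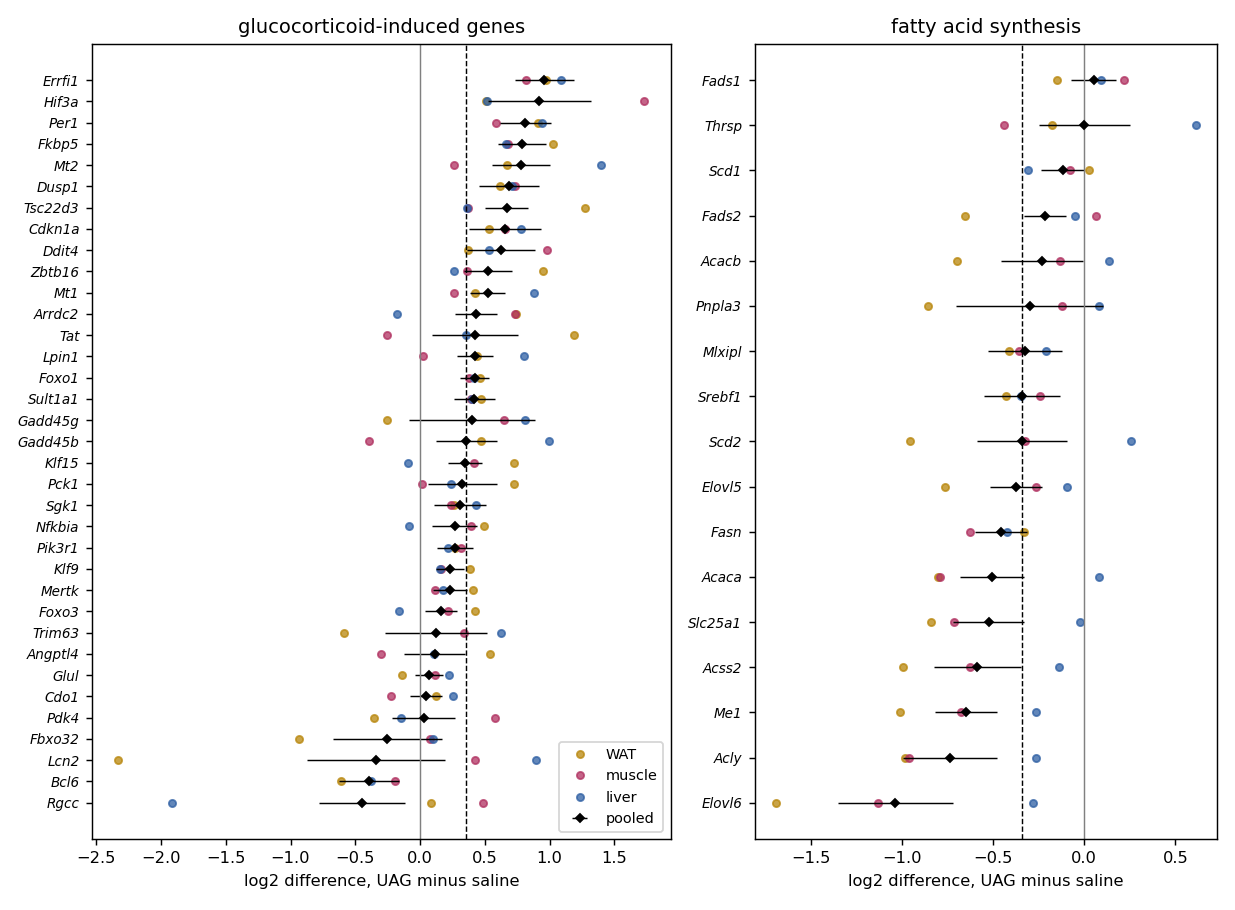
Log2 difference, UAG minus saline, of each member of the list of glucocorticoid-induced genes (left) and of fatty acid synthesis (right), with colored points for tissues, black diamonds with standard errors for the pooled value and a dashed line at the list median. Of 35 glucocorticoid-induced genes 31 lie right of 0 by the pooled value, and of 17 genes of fatty acid synthesis 15 lie left of it.

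The immediate early genes, which many stimuli switch on within minutes, were next. Of 29 measured, 26 had a positive pooled difference, 9 had an unadjusted p under 0.05, all higher, where 3.06% of all genes were, and 0 passed. The median was 0.32, with 0.22 in WAT, 0.36 in muscle and 0.24 in liver. Dusp1 is in both lists. Ier3, a regulator of cell survival, had 353 and 507 in WAT, 415 and 438 in muscle, with 73.2 and 61.9 in liver after UAG, against 228 and 267, 286 and 288, and 23.0 and 49.9 after saline. It was the only member with treatments apart in every tissue (difference 0.78, standard error 0.17, adjusted p = 0.598). Ccn2, a matricellular growth factor, also had 0.78, with overlap in WAT. Fos and Egr1, the classical members, had 0.42 and 0.36 with standard errors of 0.33 and 0.41.

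Of 20 clock genes measured, 14 had a positive difference, 4 had an unadjusted p under 0.05, all higher (Per1, Ciart, Cry1 and Per2), where 3.06% of all genes were, and the median was 0.078. Ciart, a repressor of the clock, had 189 and 231 in WAT, 251 and 243 in muscle, with 291 and 434 in liver after UAG, against 92.1 and 101, 206 and 203, and 250 and 283 after saline. The treatments lay apart in all tissues, by the widest margin in WAT (pooled difference 0.60, standard error 0.15, adjusted p = 0.702). Nr1d1, which encodes the clock repressor REV-ERBα, had -0.26.

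Genes of fatty acid synthesis lay on the lower side, and mainly in WAT and muscle. Of 17 measured, 15 had a negative pooled difference, 8 had an unadjusted p under 0.05, all lower, where 2.03% of all genes were, and 0 passed (smallest adjusted p = 0.775). The median was -0.34, with -0.76 in WAT, -0.36 in muscle and -0.09 in liver, where 6 of 17 were positive. Me1, malic enzyme, which supplies NADPH, had 3706 and 4723 in WAT, 2617 and 2839 in muscle, with 1363 and 1120 in liver after UAG, against 12549 and 5677, 4634 and 4081, and 1528 and 1438 after saline. It was the only member with treatments apart in every tissue (difference -0.65, standard error 0.17, adjusted p = 0.775), where 0.379% of all genes lay apart on this side.

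Elovl6, which elongates fatty acids of 16 carbons, had 1038 and 1039 in WAT, 691 and 1223 in muscle, with 925 and 866 in liver after UAG, against 6899 and 1634, 2352 and 1726, and 1554 and 763 after saline. The highest value was again that of WAT saline replicate 1, and the liver treatments overlapped (difference -1.04, standard error 0.32, adjusted p = 0.98). Acly, ATP citrate lyase, had -0.74. Fasn, fatty acid synthase, had -0.46, with -0.33 in WAT, -0.63 in muscle and -0.42 in liver.

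WAT saline replicate 1, the array with the brown adipocyte markers, had a summed intensity of 110046 for the list of fatty acid synthesis, against 51532 and 61488 on the WAT UAG arrays and 60470 on the other WAT saline array. In muscle the sums were 34599 and 42797 after UAG and 53353 and 51027 after saline, apart. The brown adipocyte markers there were 19799 and 14808 after UAG and 22457 and 18602 after saline. Their list holds Ppargc1a, which the study also measured in muscle. Other members were bright there too, since the median log2 intensity of the 7 markers was 10.0 to 11.9 on muscle arrays. The muscle sums are therefore no measure of brown adipocytes. The 7 brown adipocyte markers all had a negative pooled difference, with a median of -0.71, of which -1.37 in WAT and 0.095 in liver. Their part in the result was not tested. Without WAT the median of the fatty acid list was -0.28, and with an array left out it lay between -0.51 and -0.17, the smallest size being that without WAT saline replicate 1. Without that array the brown adipocyte markers had a median of -0.20. Of 20 genes of cholesterol synthesis, 19 had a negative difference, with a median of -0.20, 0 with an unadjusted p under 0.05 and -0.091 without WAT. Without WAT saline replicate 1 that median was -0.059.

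The pooled medians of the other lists of pathways lay near that of all genes. Those of fatty acid oxidation and PPARα targets (median -0.054 of 20 genes), insulin and FOXO signaling (0.040 of 26), growth hormone and STAT5 (0.023 of 13), the amino acid response (0.013 of 25), heat shock and the unfolded protein response (-0.022 of 24), interferon-stimulated genes (-0.064 of 29), NF-kappaB and acute phase genes (0.028 of 23), oxidative phosphorylation (-0.047 of 28), proteasome subunits (-0.034 of 27), cell cycle (0.042 of 26), RNA splicing (-0.048 of 25), xenobiotic and NRF2 targets (-0.0052 of 21), metallothioneins and zinc transporters (0.065 of 21), oligopeptide transporters (0.084 of 8), the C/EBP family (0.10 of 5) and the ghrelin system (-0.043 of 5) had 0 members past the test. The tissue medians were wider apart for some of them. Oxidative phosphorylation had -0.22 in WAT, 0.024 in muscle and 0.052 in liver. Fatty acid oxidation had -0.35, -0.10 and 0.11 in that order, and the cell cycle list -0.090, 0.50 and 0.056. Of the marker lists, skeletal muscle fibre markers had a pooled median of -0.68 and smooth muscle markers of -0.41, with -1.38 and -1.67 in WAT, where the saline arrays described above stood apart. Without WAT saline replicate 1 the skeletal muscle median was -0.13, and without WAT saline replicate 2 the smooth muscle median was 0.14. Neutrophil markers had 0.32, with -1.16 in WAT and 2.05 in muscle. Their pooled median was -0.38 without muscle UAG replicate 2 and -0.37 without muscle saline replicate 1.

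**Figure D5:**
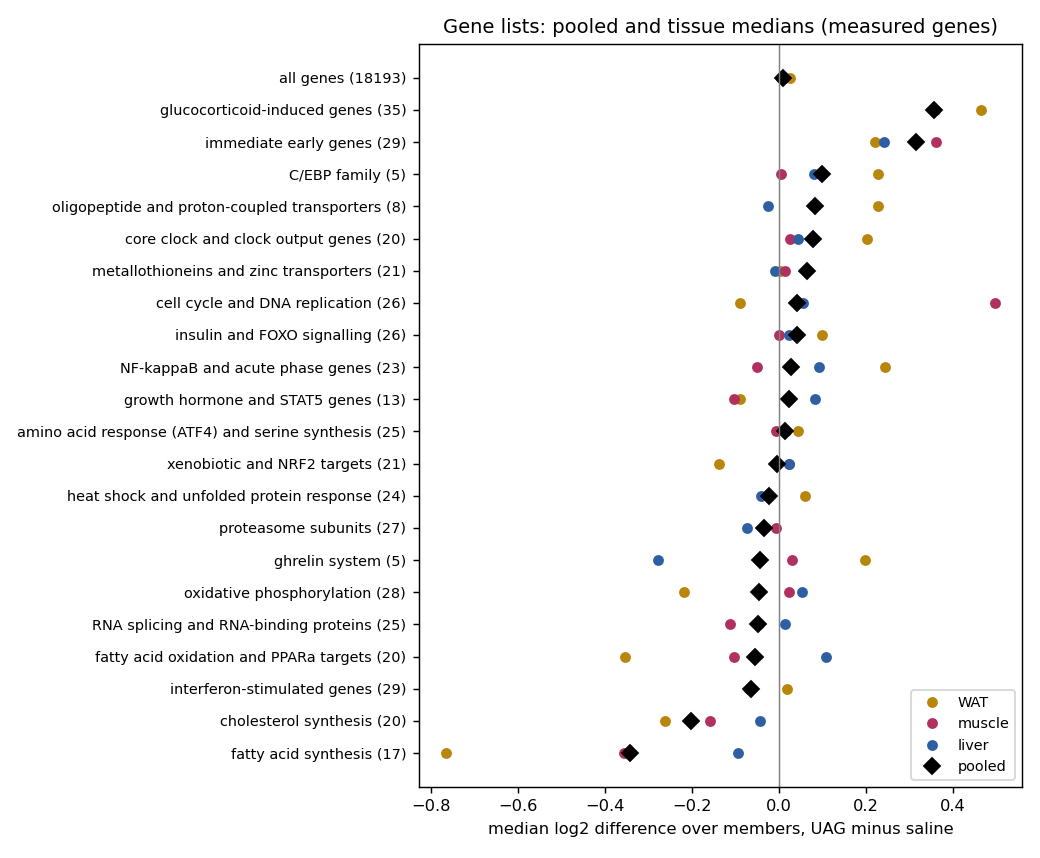
Median log2 difference over the members of each pathway list (marker lists are not drawn), UAG minus saline, pooled (black diamonds) and by tissue (colored points), with the number of measured genes in brackets and all genes at the top. The glucocorticoid-induced genes (0.36) and immediate early genes (0.32) lie farthest right, and fatty acid synthesis (-0.34) farthest left of those drawn.

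The differences of some genes had opposite signs in different tissues, and such a pooled value describes no tissue. None of these genes passed the test between tissues, and they were picked by its smallest p-values. Fgf13, an intracellular fibroblast growth factor homolog, had 1262 and 995 in WAT after UAG, against 390 and 314 after saline. Its muscle values were 929 and 933 after UAG, against 874 and 774 after saline. In liver it was dim, at 2.53 and 2.48 after UAG and 6.40 and 5.34 after saline. The pooled difference was 0.21. Tnnt2, cardiac troponin T, had 14.0 and 19.0 in WAT after UAG, against 180 and 129 after saline, but 52.5 and 51.3 in muscle, against 38.7 and 39.3. Peg3, an imprinted zinc finger gene, had 1.36 in WAT, -0.77 in muscle and -1.95 in liver. Its brightest probe set had 1.55, -0.26 and -0.49 in that order, and a pooled difference of 0.27 against -0.45 for the first. A second Tnnt2 probe set had -2.38 in WAT and overlapped in muscle and liver. The adjusted p for a difference between tissues was 0.0729 for these Fgf13, Tnnt2 and Peg3 probe sets, and also for Tlcd4 and Tpd52l1, whose WAT differences were -1.97 and -2.72. Reln, reelin, a secreted matrix protein, had -1.61 in WAT and 0.54 in muscle (adjusted p between tissues 0.158).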

How the data were processed

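RNA of 3 tissues was measured on 12 Affymetrix Mouse Genome 430 2.0 arrays. The deposited values are normalized log2 intensities of all 45101 probe sets. The methods of the study describe quantile normalization over probe sets called present at least once, with intensities collected in R. The processing notes name MAS5, and no version is given in the sources used here. The threshold of 30 in the study's methods is not applied in the table. The arrays were not scaled again.

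All 45037 probe sets were fitted with limma 3.58.1 (R 4.3.3), with terms for tissue and treatment, an intensity trend in the prior variance and two-sided tests, called at an adjusted p under 0.05. The methods state no design for pooled tissues. A second fit had a mean for each of the 6 groups and gave the tissue differences and an F-test between tissues. These fits have no term for the mouse and take the tissues as independent. A random block for treatment and replicate number had a consensus correlation of -0.0036.

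The array annotation gave 1 gene for 34945 probe sets, several for 932 and none for 9160, and named 18193 genes, of which the brightest probe set by mean intensity stood for a gene in lists. Named genes were those past the test, then up to 6 per direction by smallest p with treatments apart in every tissue, genes named earlier as changed in all tissues, the 4 largest differences per list, the 6 smallest p-values between tissues, and Ghsr. Other list members, such as Tsc22d3, Trim63, Fos, Egr1, Nr1d1 and Fasn, were named after their values were seen. The members and lists were chosen with earlier results of these data known. Promoters were scanned in Python. On simulated data, shifts were added to 200 probe sets. The pooled fit recovered 20.9, 58.2 and 87.9% of shifts of 0.5, 1 and 2 on the log2 scale. These shares describe the simulated data only and are not the power of the test on the measured arrays. The measured tissues may share mice, and their UAG differences were close to uncorrelated.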

Additional observations from a re-analysis of the deposited data

Results flagged for a closer look

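In 11 of the named genes and list members, each by 1 probe set, the UAG and saline arrays lay apart in opposite directions in different tissues. This was so for 5224 of 45037 probe sets (11.6%). The gap between the highest and the lowest tissue difference was 4.23 on the log2 scale in Tnnt2, 3.31 in Peg3, 2.90 in Fgf13 and 2.15 in Reln, with an adjusted p for a difference between tissues of 0.0729 for the first 3 and 0.158 for Reln. It was 3.22 in Lcn2, 3.10 in Slc7a5, 2.14 in Mbp, 2.09 in Snrpn, 0.77 in Kdr, 0.74 in Cebpb and 0.63 in Csf1r. The adjusted p of Slc7a5 was 0.904, and that of the other 6 was 1.00. The limma F-test called none of the 11.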

How the results depend on the processing

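The pooled test called 5 probe sets. It called 1 with a floor of 30, 2 with a floor of 100, 3 among those whose mean intensity reached 30, 2 without the intensity trend, 2 on the mean of the 3 tissues per treatment and number, 2 without WAT, 3 without liver, and 1 with all probe sets of a gene averaged. Leaving out an array gave 3 to 7, with 4 higher and 3 lower without muscle saline replicate 2 or liver saline replicate 2. Among those reaching 30 in each tissue, an alternative chosen after seeing the data, it called 4, all lower. The labels number replicates 1 and 2 in each group. Differences between these numbers had a correlation between UAG and saline of -0.14 in WAT, 0.11 in muscle and -0.038 in liver. These correlations cannot tell whether samples with the same number share anything else across treatments. Between tissues of 1 treatment the correlation was 0.0038 to 0.041 for UAG and 0.053 to 0.12 for saline, and whether a number is a mouse is not given in the sources used here. With it as a replicate block 4 were called, the 1 higher being Cebpd and not Timp4. Erdr1 was called in 30 of 31 alternatives, 1427820_at in 29 of 30, Tmem267 in 25 of 31, 1439200_x_at in 11 of 30 and Timp4 in 8 of 30. The count of probe sets apart in every tissue, 444, was 230 with the floor of 30, 272 and 161 where mean intensity reached 30 and 100, and 739 to 1070 without an array. Single tissues are less stable. With the floor of 30, calls were 81 in WAT, 18 in muscle, 160 in liver and 142 between tissues. Without the trend they were 0 in WAT and 2 in liver, and at a mean of at least 100 liver had 1. Without an array they ranged from 0 to 162 in WAT, 0 to 28 in muscle, 0 to 141 in liver and 0 to 11 between tissues, and list members past the test from 0 to 1. Pooled differences of genes whose tissue differences had opposite signs turned. Peg3 was at 0.095 and 0.097 with the floors of 30 and 100 and 0.30 without liver. Tpd52l1 was at 0.16 and Reln at 0.066 with the floor of 100. Without WAT, Fgf13 was at -0.52, Tnnt2 at 0.71, Tpd52l1 at 0.24 and Reln at 0.34. With an array left out Fgf13 ranged from -0.016 to 0.42, and was negative without WAT UAG replicate 1 and, at -0.012, without WAT saline replicate 2. The cause of these changes was not tested. Affymetrix signal over background was not given in the sources used here, and 2 arrays per group limit every value.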
